A study of Mus musculus with 2 samples.

Results

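Of 8 genes of the p53 pathway chosen by name, 7 were matched by Ensembl ID to rows of the expression table of 10666 genes. They are *Cdkn1a*, *Mdm2*, *Ccng1*, *Bax*, *Zmat3*, *Trp53inp1* and *Trp53*. The 8th, *Phlda3*, matched no row and was not analysed here. The data are single-cell RNA-seq profiles of cortical neurospheres, spheres of neural stem cells and progenitors grown in suspension. Both cultures came from the dorsal telencephalon of wild-type C57BL/6 mouse embryos at embryonic day 14.5 and grew in medium with B27 (no retinoic acid), N2, EGF at 10 ng/ml and bFGF at 10 ng/ml. There are 2 cultures of this 1 condition, with 5748 cells in culture 1 and 7057 in culture 2, and no treated, irradiated or p53-deficient group. All values are therefore given by culture, with no test between groups, and cells were not counted as replicates.

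p53, the product of *Trp53*, is a transcription factor that is kept low by degradation and accumulates when cells meet DNA damage or other stress. It binds elements made of a pair of copies of a short motif, the p53 half-site, and raises transcription of genes that stop the cell cycle, start cell death or limit p53 itself. Much of the control of p53 acts on the protein, so the mRNA of *Trp53* and the mRNAs of its targets need not move together. In the list, *Cdkn1a* encodes the cyclin-dependent kinase inhibitor p21, and *Ccng1* encodes cyclin G1, which takes part in the feedback on p53. *Mdm2* encodes the ubiquitin ligase that marks p53 for degradation, *Bax* a pore-forming protein of the mitochondrial death pathway, *Zmat3* a zinc-finger protein that binds RNA, and *Trp53inp1* a nuclear protein that responds to stress.

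The half-site was searched in RefSeq windows of the GRCm38.p6 build, each from 250 bases before to 50 after a start site. It was chosen because the members were picked as genes of the p53 pathway. Most pairs of targets, but no pair with *Trp53*, are seen below to vary together. A link between the half-sites and this was not tested. The motif reads the same on both strands as a pattern, so 1 search covers both. Of 32851 windows, 8.36% held at least 1 half-site, and 0.0731% (24 windows) held a pair of half-sites with a spacer of at most 13 bases. Of the 8 genes, 6 had a window, 7 windows in all, and 5 windows of 5 genes held a half-site. *Zmat3* and *Trp53inp1* had no window. *Cdkn1a* had a pair of windows. The window at its upstream start site (chr17:29090729-29091028, plus strand) held a pair of half-sites, at -73 to -64 and -51 to -42 from the start site, with a spacer inside the limit. The window at the downstream start site (chr17:29093519-29093818) held none, and neither did that of *Phlda3* (chr1:135765835-135766134). The stretches with the half-sites are shown 5′ to 3′ on the gene's strand, with 20 bases on each side and the half-sites in capitals. A match is a description of letters and not a measured binding site, and no match says only that these letters are not in the window.

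*Cdkn1a*, chr17:29090886-29090957, plus strand: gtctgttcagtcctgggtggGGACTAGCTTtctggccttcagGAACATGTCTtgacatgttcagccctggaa
*Ccng1*, chr11:40755442-40755491, minus strand: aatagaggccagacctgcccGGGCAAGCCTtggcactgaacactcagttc
*Mdm2*, chr10:117710915-117710964, minus strand: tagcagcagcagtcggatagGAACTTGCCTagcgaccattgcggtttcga
*Bax*, chr7:45467070-45467119, minus strand: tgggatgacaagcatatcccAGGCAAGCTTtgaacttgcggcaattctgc
*Trp53*, chr11:69580264-69580313, plus strand: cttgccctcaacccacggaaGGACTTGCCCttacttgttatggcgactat

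The half-sites of *Ccng1* and *Mdm2* lay at -185 to -176 and -186 to -177 from the start site, that of *Bax* at -201 to -192 and that of *Trp53* at -75 to -66. All shown stretches are upstream of the RefSeq start site, outside the annotated gene. In the GENCODE vM21 annotation of GRCm38, the genes themselves lie at chr17:29090976-29100727 (*Cdkn1a*), chr11:40748552-40755311 (*Ccng1*), chr10:117688875-117710758 (*Mdm2*), chr7:45461697-45466898 (*Bax*), chr3:32334792-32366014 (*Zmat3*), chr4:11156431-11174379 (*Trp53inp1*) and chr11:69580359-69591873 (*Trp53*).

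The sum of total UMIs was 118763000 in culture 1 and 110528000 in culture 2, rounded to 6 digits, with medians per cell of 19477 and 14637. The cultures shared 48 cell barcodes. The neural progenitor markers *Fabp7*, *Vim* and *Nes* were detected in 89.8% to 100% of cells of either culture, whereas *Pax6*, a factor of dorsal progenitors, was detected in 21.1% and 23.1%, and *Olig2*, a factor of ventral and oligodendrocyte progenitors, in 97.3% and 91.9%. No marker of the lists for microglia, endothelium, mesenchyme, erythroid cells or intermediate progenitors matched a row, so these cell types were not analysed here.

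The deposited values are depth-normalised per cell. For each gene and culture, the nonzero values on the log2(value + 1) scale were found to be offset by a constant from the values that whole counts would give, and removing the offset gave back whole counts. This step was chosen after seeing the data. For the members, 81.0% to 98.9% of the values under 8.5 counts lay within 0.1 of a whole number, and the lowest shares were those of *Ccng1* (87.2% in culture 1 and 81.0% in culture 2). Levels are given on that scale, as whole counts per 10000 UMIs with an exact 95% Poisson interval that covers counting error only, beside the share of cells with a value above 0, which the offset does not touch.

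*Cdkn1a* was the member whose level differed most between the cultures. It had 3.23 whole counts per 10000 UMIs in culture 1 (3.19 to 3.26) and 6.21 in culture 2 (6.16 to 6.25). It was detected in 85.7% of cells of culture 1 (exact binomial interval 84.7% to 86.6%) and in 95.6% of the shallower culture 2 (95.1% to 96.1%). A cell of culture 1 held a median of 4 *Cdkn1a* counts (quartiles 1 and 9), and a cell of culture 2 a median of 7 (quartiles 3 and 13). In the deposited values this difference was small, with a mean value of 7.76 in culture 1 and 8.57 in culture 2. The offset of *Cdkn1a* was 0.41 in culture 1 and -0.37 in culture 2, so that the deposited values stand above the counts in the first culture and below them in the second.

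The ratio of culture 2 to culture 1, taken from the counts before rounding, was 1.94 for *Cdkn1a*. One of the 7 members, *Cdkn1a*, reached a ratio of 1.5, against 3.4% of the 7201 genes whose counts could be recovered in both cultures, and 30 of those genes had a larger ratio than *Cdkn1a*. The ratios of the other members were 1.28 for *Bax*, 1.24 for *Zmat3*, 0.97 for *Trp53inp1*, 0.93 for *Mdm2*, 0.87 for *Trp53* and 0.83 for *Ccng1*, where the median of all recovered genes was 0.92. Set against that median, *Mdm2* and *Trp53inp1* lay above it and *Trp53* and *Ccng1* below. In either direction, 1 of 7 members differed by at least 1.5 times, against 15.1% of the recovered genes, so the number of members is near the share over all genes. *Ccng1*, the gene closest to *Cdkn1a* among cells, was lower in culture 2 by these counts, while the ratio of its mean deposited values was 0.98. With 1 library of each culture there is no replicate check on any of these ratios.

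The difference in *Cdkn1a* was also seen in cells of 1 range of depth and in every arc of the position. Cells with 10000 to 20000 UMIs had a median of 15917 UMIs in culture 1 and 14331 in culture 2, so culture 2 remained shallower. In them *Cdkn1a* was detected in 81.7% of 2706 cells of culture 1 (80.2% to 83.1%) and in 96.1% of 5370 cells of culture 2 (95.6% to 96.6%), and the ratio of counts was 2.08. *Ccng1* was detected in 82.7% and 77.2% of these cells, which the unequal depth can affect, and with cells thinned to 8000 UMIs its expected shares were 66.2% and 57.7%. Within 8 arcs of the cell-cycle position the *Cdkn1a* ratio ran from 1.41 to 2.87 and was above 1 in 8 of 8 arcs, and with the arcs weighted as in culture 1 it was 1.83. *Bax* was also higher in culture 2 in 8 of 8 arcs, with ratios from 1.11 to 1.39, and *Ccng1* was lower in 8 of 8 arcs, with ratios from 0.537 to 0.995. The other members were higher in some arcs and lower in others. All arcs of a culture share 1 offset per gene, so they are not separate checks on it.

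**Figure D1:**
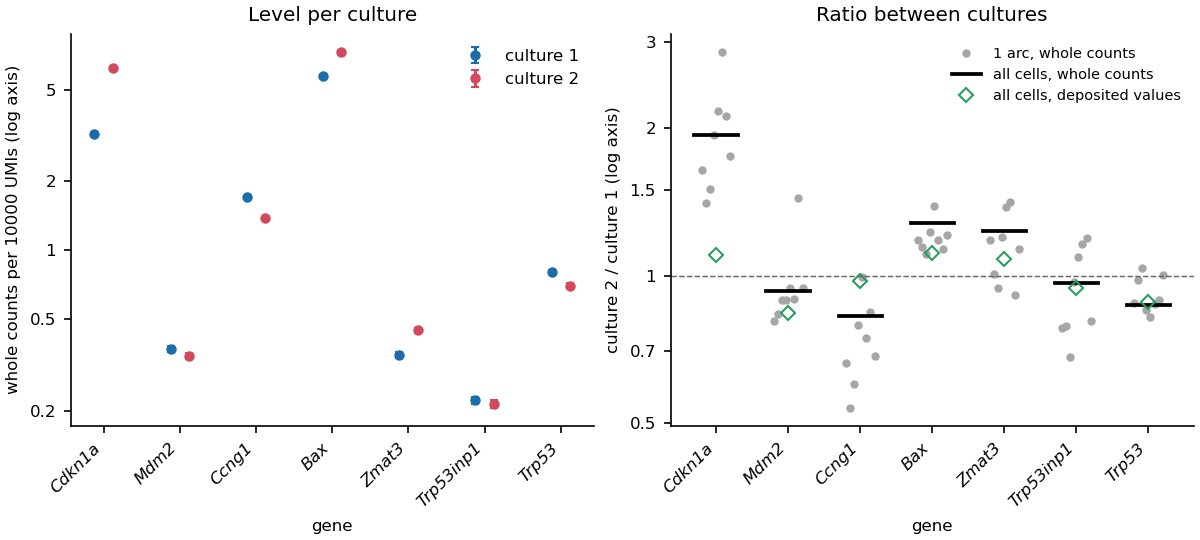
Left, whole counts per 10000 UMIs (log axis) of 7 genes in culture 1 (blue) and culture 2 (red), with exact 95% Poisson intervals that are mostly smaller than the points. Right, ratio of culture 2 to culture 1 (log axis), where the black bar is all cells, grey points are the 8 arcs of the cell-cycle position and green diamonds are the ratio of the means of the deposited values. For *Cdkn1a* the bar stands at 1.94 and the diamond at 1.10.

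The remaining members were detected in cells of either culture in very different shares. *Bax* was found in 99.7% of cells of culture 1 and 99.9% of culture 2, with 5.72 and 7.29 whole counts per 10000 UMIs. *Ccng1* was found in 85.7% and 78.3% of cells (1.71 and 1.38 counts per 10000 UMIs) and *Trp53* in 76.0% and 63.3% (0.81 and 0.70). *Mdm2* was detected in 49.5% and 39.1% of cells (0.37 and 0.35), *Zmat3* in 49.3% and 46.4% (0.35 and 0.45) and *Trp53inp1* in 31.4% and 24.8% (0.22 and 0.21). With cells thinned to 8000 UMIs, which left out 88 and 205 shallower cells, the expected shares were 25.2% and 23.4% for *Mdm2*, 23.8% and 28.9% for *Zmat3*, and 15.2% and 14.4% for *Trp53inp1*. For *Zmat3* the thinned shares, which rest on the recovered counts, put culture 2 higher, while among cells with 10000 to 20000 UMIs, still shallower in culture 2, it was detected in 44.5% and 43.8%, so no order is read from it. No cell type of the cultures is known to lack these genes, so the share that free RNA could give was not measured.

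Expression was spread unevenly over cells. The tenth of cells with the highest values held 33.3% and 32.7% of the summed *Cdkn1a* values of cultures 1 and 2, between the 18.3% and 18.5% of *Bax* and the 56.5% and 59.8% of *Trp53inp1*, and near the 29.3% to 32.6% of *Ccng1* and *Trp53*. This share is also higher where counts are few, as for *Trp53inp1*, so the genes are not ranked by unevenness. One cell of culture 1 reached a *Cdkn1a* value of 485, or 160 counts. At the same time 14.6% of cells of culture 1 and 4.36% of culture 2 had no *Cdkn1a* count, against 0.861% and 0.0798% expected for a Poisson law at each depth. Of the 6 targets analysed, all but *Trp53*, all 6 were detected in 10.7% and 6.89% of cells and none in 0.0870% (5 cells) and 0.0283% (2 cells).

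The next question was how the genes vary over the cell cycle. The authors' cell-cycle position is an angle from 0 to 2π in a principal component plot of cell-cycle genes. By the deposited Seurat stages, the arc from 1.75π to 2π held 99.9% and 99.3% G1 cells in cultures 1 and 2, the arc from 0.5π to 0.75π 99.15% and 99.05% S cells, and the arc from π to 1.25π 98.4% and 99.1% G2M cells. Log2(value + 1) was fitted on 2 harmonics of the position for every gene in each culture, and a gene was counted where R² was at least 0.02 in both cultures. By this measure 5 of 7 members varied with the position, against 8.34% of the 10666 genes. They were *Ccng1*, *Bax*, *Trp53*, *Cdkn1a* and *Trp53inp1*, and *Mdm2* and *Zmat3* were below the limit in both cultures. Low detection limits R² of these sparse genes. The highest arc had 1.41 and 1.74 times the counts per UMI of the lowest for *Mdm2*, and 1.73 and 1.62 times for *Zmat3*. For *Bax* it had 1.33 and 1.41 times. Some of these arcs held few cells, so the 3 genes are not ranked by how much they vary. The GO genes behind the position may hold some members, and which they were is not given in the sources used here. With a position made from 90 Seurat S and G2M genes, none of them a member, 4 of 7 were counted and *Trp53inp1* fell to a lower R² of 0.018.

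The targets that varied had high levels in the 1.75π to 2π arc and lower levels around S phase. The arc from 0 to 0.25π, where 85.2% and 80.6% of cells were G1 by the Seurat stages, had lower levels of *Cdkn1a*, *Ccng1*, *Bax* and *Trp53inp1* than the 1.75π to 2π arc in both cultures, so the high level did not hold for G1 cells as a whole. R² of *Ccng1* was 0.115 in culture 1 and 0.0981 in culture 2. Its level fell from 2.54 counts per 10000 UMIs in the 1.75π to 2π arc of culture 1 to 1.12 in the 0.5π to 0.75π arc, and between these arcs of culture 2 from 1.74 to 0.67. The arc from 1.25π to 1.5π, mostly G2M cells, had the highest *Ccng1* of culture 2, at 1.86 (279 cells), and 2.49 in culture 1 (85 cells). *Cdkn1a* had R² of 0.0515 and 0.119. Its level was 4.46 and 7.84 in the 1.75π to 2π arc, 2.24 and 3.68 in the 0 to 0.25π arc, and 2.15 and 3.03 in the 0.25π to 0.5π arc. In culture 1 the lowest value, 2.05, was in the 85 cells from 1.25π to 1.5π, where culture 2 had 5.89. It was higher again at 3.27 and 6.32 from 0.75π to π, where 60.2% and 63.9% of cells were S, and at 2.99 in culture 1 and 6.504 in culture 2 between π and 1.25π. *Bax* varied over a narrow range, from 6.68 and 8.09 in the 1.75π to 2π arc to 5.07 (0.75π to π) and 5.75 (0.5π to 0.75π). *Trp53inp1* changed most in proportion, with 0.33 and 0.27 in the 1.75π to 2π arc against 0.11 and 0.078 in the 0.5π to 0.75π arc, and its highest value in culture 2 was 0.29 from 1.5π to 1.75π (189 cells).

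*Trp53* itself differed from these targets in the 1.75π to 2π arc. Its level there was its lowest, at 0.605 counts per 10000 UMIs in culture 1 and 0.607 in culture 2, and its highest was 0.98 in the π to 1.25π arc of culture 1 and 0.88 in the 0.5π to 0.75π arc of culture 2. Detection of *Trp53* in thinned cells was 38.0% and 37.5% in the 1.75π to 2π arc, against 50.5% and 51.0% in the 0.5π to 0.75π arc. From 0.5π to 0.75π *Trp53* was high (0.85 and 0.88) where *Cdkn1a* was low (2.19 and 3.29). *Ccng1* and *Trp53inp1* had their lowest level in that arc in both cultures. The patterns were not opposite in every arc. From 0 to 0.25π both *Trp53* (0.69 and 0.61) and *Cdkn1a* were low. From π to 1.25π *Trp53* (0.98 and 0.81) was above its lowest level, as *Cdkn1a* was. Median total UMIs were lower in the 1.75π to 2π arc than in the 0.5π to 0.75π arc, 18437 against 20253 in culture 1 and 13991 against 15726.5 in culture 2, and with total UMIs in the fit the same number of members, 5, was counted.

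**Figure D2:**
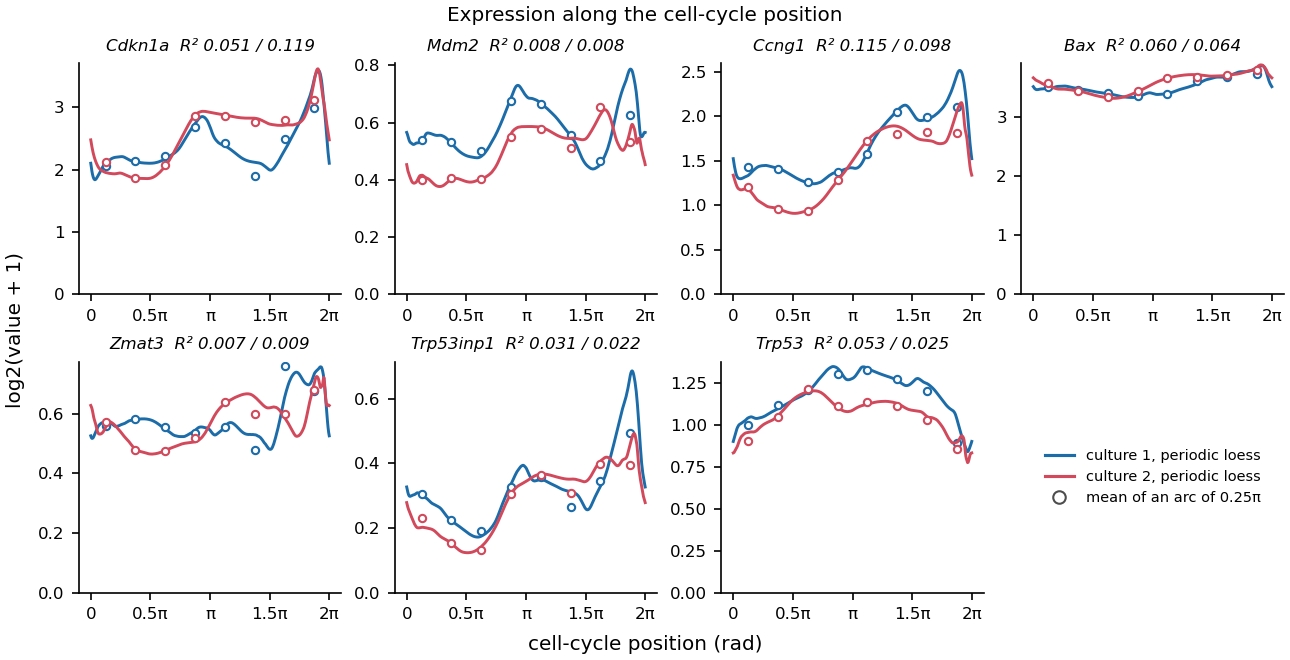
Log2(value + 1) of 7 genes (y axis) along the cell-cycle position in radians (x axis), in culture 1 (blue) and culture 2 (red). Lines are periodic loess fits, open points are means of arcs of 0.25π, and the R² of both cultures stands above each panel. *Cdkn1a*, *Ccng1* and *Trp53inp1* have their loess maximum near 1.9π in both cultures, and the loess minimum of *Trp53* is at 1.965π.

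The maximum of *Cdkn1a* was narrow in both cultures. In culture 2, *Ccng1* and *Trp53inp1* were high over a wider range. There *Ccng1* had 1.86 counts per 10000 UMIs from 1.25π to 1.5π and 2.03 from 1.9π to 1.95π. *Trp53inp1* had 0.29 from 1.5π to 1.75π and 0.31 from 1.9π to 1.95π. The loess lines peaked between 1.89π and 1.92π in both cultures for *Cdkn1a*, *Ccng1*, *Bax* and *Trp53inp1*, and at 1.93π and 1.895π for *Zmat3*. In arcs of 0.05π, *Cdkn1a* reached 7.04 counts per 10000 UMIs between 1.85π and 1.9π in culture 1 (117 cells) and 10.4 in culture 2 (297 cells). It was 3.38 and 6.23 in the last arc before 2π (955 and 1383 cells). *Ccng1* had 3.11 and 1.99 in the first of these arcs and 2.14 and 1.43 in the last. Cells with a G1 position thus differed among themselves in *Cdkn1a* and *Ccng1*, and in both cultures the level was lower in the last arc. *Trp53* was lower in the last arc as well, at 0.57 and 0.56 against 0.77 and 0.65 between 1.85π and 1.9π. The share of cells in the 1.75π to 2π arc was 31.1% in culture 1 and 44.6% in culture 2.

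Co-expression was then measured as Pearson's r of log2(value + 1) across the cells of a culture, over every pair of genes of the table. These are descriptions of cells that share a library, and no p is given. Of 21 pairs of members, 13 had r of at least 0.1 in both cultures, against 0.173% of all pairs of genes. All 13 were among the 15 pairs of targets, and none of the 6 pairs with *Trp53* was counted. The pairs of targets below the limit were *Mdm2* with *Bax* (0.0693 and 0.0838) and *Mdm2* with *Zmat3* (0.0777 and 0.0600).

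The highest correlation was between *Cdkn1a* and *Ccng1*, at 0.493 in culture 1 and 0.415 in culture 2. *Cdkn1a* with *Bax* had 0.342 and 0.323, *Ccng1* with *Bax* 0.329 and 0.270, *Cdkn1a* with *Trp53inp1* 0.272 and 0.255, *Cdkn1a* with *Zmat3* 0.214 and 0.199, and *Cdkn1a* with *Mdm2* 0.177 and 0.171. *Trp53* correlated with *Cdkn1a* at -0.0265 and -0.0226 and with *Ccng1* at -0.0872 and -0.0662. *Cdkn1a* was the gene with the largest lower r of the cultures, among the other 10665 genes, for *Ccng1*, *Mdm2*, *Zmat3* and *Trp53inp1*, and was second for *Bax*. Low detection limits r of the sparse members, so values of *Mdm2*, *Zmat3* and *Trp53inp1* cannot be ranked against those of *Bax*.

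The correlations were also computed with depth and position taken out. With log2 total UMIs, its square and the harmonics of the position removed, 10 of 21 pairs kept a partial r of at least 0.1 in both cultures, against 0.0344% of all pairs. The partial r of *Cdkn1a* was 0.427 and 0.342 with *Ccng1*, 0.303 and 0.271 with *Bax*, 0.247 and 0.211 with *Trp53inp1*, 0.191 and 0.170 with *Zmat3* and 0.175 and 0.147 with *Mdm2*. The partial r of *Cdkn1a* and *Trp53* was 0.0174 and -0.000896. Among cells from 1.5π over 0 to 0.25π alone (2523 and 4180 cells), 11 pairs were counted and the lower r of *Cdkn1a* and *Ccng1* was 0.390.

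**Figure D3:**
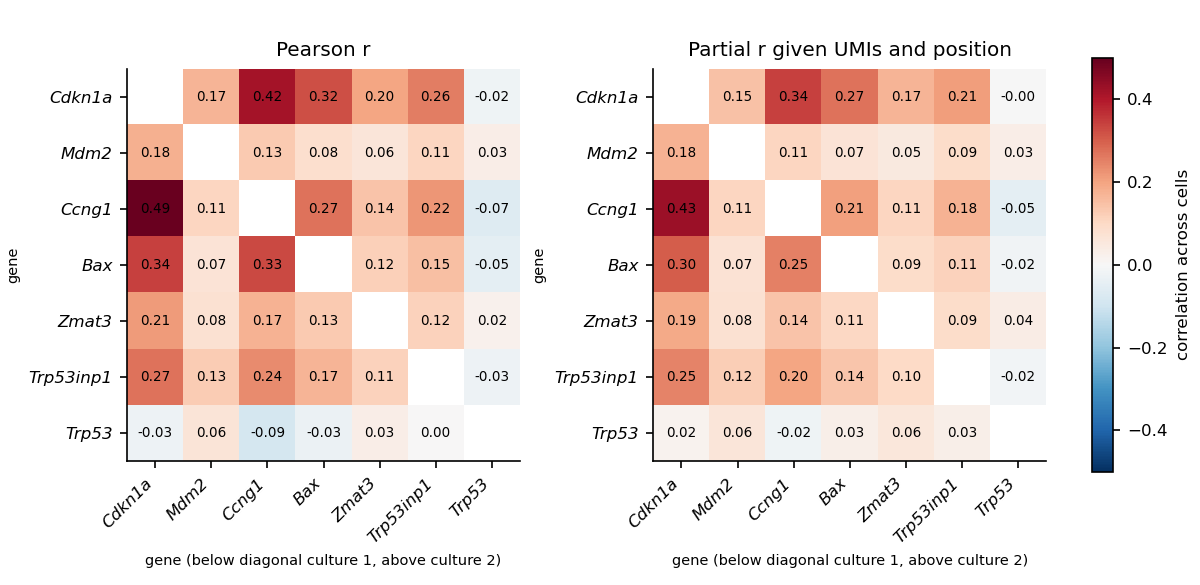
Correlations across cells between 7 genes (both axes), Pearson's r at left and partial r given total UMIs and position at right, with culture 1 below and culture 2 above the diagonal. Pairs of targets are positive in both cultures, from 0.49 for *Cdkn1a* and *Ccng1* in culture 1 downwards, and the row and column of *Trp53* lie near 0.

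To put the correlations in terms of counts, the cells of each culture were ranked by their *Cdkn1a* value and divided into 4 groups of equal size. From the group with the lowest to that with the highest *Cdkn1a*, the *Trp53inp1* level went from 0.114 to 0.411 counts per 10000 UMIs in culture 1 and, in culture 2, from 0.101 to 0.395, a ratio of 3.60 and 3.91. *Ccng1* went from 0.918 to 2.58 and from 0.792 to 2.19 (2.81 and 2.77). The ratio was 1.99 and 1.96 for *Zmat3*, 1.93 and 2.0 for *Mdm2*, and 1.45 and 1.43 for *Bax*. *Trp53* had ratios of 0.95 and 0.92. With the ranking done inside each arc of the position, the ratios were 3.18 and 3.11 for *Trp53inp1*, 2.47 and 2.28 for *Ccng1* and 0.997 and 0.972 for *Trp53*. The share of cells from 1.5π over 0 to 0.25π was 38.0% in the lowest group of culture 1 and 56.3% in the highest, and 50.7% and 68.8% in culture 2. The cultures gave similar ratios although their *Cdkn1a* levels differed, and no interval over cultures can be given for 2 libraries.

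**Figure D4:**
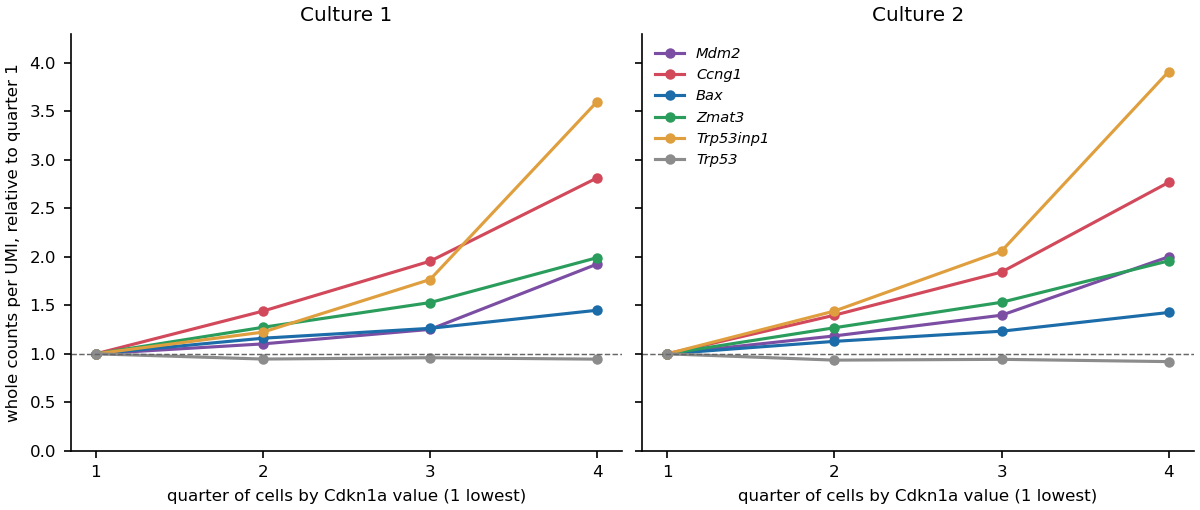
Whole counts per UMI of 6 genes relative to the group of cells with the lowest *Cdkn1a* (y axis), in 4 groups of cells ranked by *Cdkn1a* value (x axis), for culture 1 (left) and culture 2 (right). *Trp53inp1* ends at 3.60 and 3.91 and *Ccng1* at 2.81 and 2.77, while *Trp53* ends at 0.95 and 0.92.

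The genes most like *Cdkn1a* across cells were then read from the whole table, by the lower r of the cultures. After *Ccng1*, the order was *Rps27l*, which encodes a ribosomal protein-like p53 target (0.416 and 0.376), *Psrc1*, a spindle-associated protein (0.334 and 0.343), *Bax*, the transcript 9530053A07Rik (0.353 and 0.263), *Trp53inp1*, *Sesn2*, a stress-induced inhibitor of mTORC1 (0.249 and 0.240), *Bbc3*, which encodes the death-promoting protein PUMA (0.231 and 0.231), *Aen*, an exonuclease (0.269 and 0.219), and *S100a10*, which encodes the annexin A2 partner p11 (0.363 and 0.215). Reads of *Rps27l* may be shared with its close paralogue *Rps27*. Of these 10 genes, 3 were members and 5 stood in the list of other p53 targets used below. Of the 10666 genes of the table, 7 were members and 30 stood in that list, which was written with earlier results of these data known. For *Bax*, *Rps27l* was nearest (0.417 and 0.394). For *Trp53* the nearest were *Ptma* (0.271 and 0.167), *Npm1* (0.218 and 0.163) and *Tubb5* (0.217 and 0.148), genes of growing and dividing cells and none of them a member.

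Against the mean of the standardised values of the 6 targets, the 10 nearest genes outside the members were *Rps27l* (0.472 and 0.461), *Psrc1* (0.351 and 0.340), 9530053A07Rik (0.370 and 0.324), 9230114K14Rik (0.258 and 0.301), *Bbc3*, *Sesn2*, *Ei24*, *Cdkn2a* (0.294 and 0.244), *Svop* and *Aen*. At the other end, the lowest r with *Cdkn1a* belonged to *Ptma* (-0.208 and -0.190), *Stmn1* (-0.169 and -0.166), *Hmgb3* (-0.149 and -0.162), *Nasp* (-0.136 and -0.174) and *Hmgb1* (-0.180 and -0.131). These 5 varied strongly with the position, with R² from 0.213 to 0.542. Given total UMIs and position, the lowest was *Cenpa*, with a partial r of -0.118 and -0.184, followed by *Marcks*, *Plpp3*, *Arl6ip1* and *Gria2*. The R² of *Cenpa* with the position was 0.736 and 0.702.

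A list of 45 other p53 targets was written from general knowledge, with earlier results of these data known, and 30 of them were analysed. Of these, 15 had r with *Cdkn1a* of at least 0.1 in both cultures and 0 had r of at most -0.1, where 1.17% of all genes reached 0.1. The median lower r was 0.105 over the list and -0.0101 over all genes. Given total UMIs and position, 14 of the 30 were counted, against 0.675% of all genes. Besides the genes named above, the 14 included the death genes *Fas* (partial r 0.198 and 0.172) and *Pmaip1* (partial r 0.188 and 0.149). *Apaf1*, also a death gene, was not counted (partial r 0.0730 and 0.0735). *Bbc3*, *Fas* and *Pmaip1* were detected in 23.2% of cells or fewer. Other targets had r near 0 at low and at higher detection. *Sesn1* (0.0047 and -0.0069), *Ddb2* (-0.0020 and 0.0037) and *Tigar* (-0.0023 and -0.0093) were detected in 12.2% of cells or fewer. *Triap1* (0.0366 and 0.0140) was detected in 52.6% and 37.0% of cells, and *Fbxw7* (0.0307 and 0.0095) in 50.03% and 41.5%. Among sparse genes, *Tnfrsf10b* (0.163 and 0.144) and *Polk* (0.131 and 0.125) were counted although detected in 11.8% of cells or fewer. These 7 genes, and *Fas*, *Pmaip1* and *Apaf1*, were named after their values were seen.

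Along the position, 7 of the 30 targets reached R² of 0.02 in each culture, against 8.34% of all genes, and the median lower R² was 0.0045 over the list and 0.0018 over all genes. They did not share 1 phase. *Ckap2*, a spindle protein, had its highest arc at π to 1.25π (lower R² 0.334), as did *Psrc1* (0.0598), whereas *Tob1*, an inhibitor of proliferation, was highest from 1.75π to 2π in culture 1 and from 1.5π to 1.75π in culture 2 (0.0215), and *Rps27l* from 1.5π to 1.75π and from 1.75π to 2π (0.0566). *Ei24* was lowest from 0.5π to 0.75π in both cultures (0.0391), *Ppm1d*, which encodes a phosphatase that acts on p53, was highest from 0.75π to π in both (0.0218), and the 7th gene was *Sesn2* (0.0205). Of the 22 targets with recovered counts, 1 had a ratio of culture 2 to culture 1 of at least 1.5, *Bbc3* at 1.62, against 3.4% of all recovered genes. The median ratio was 0.98 over the list and 0.92 over all recovered genes.

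Of 23 regulators and relatives of p53, 21 were analysed. *Cdkn2a*, whose products include ARF, which holds back MDM2, and *Rchy1*, a ubiquitin ligase for p53, had r with *Cdkn1a* of at least 0.1 in both cultures (0.269 and 0.205 for *Cdkn2a*, 0.193 and 0.187 for *Rchy1*). They were 2 of 21, against 1.17% of all genes. The values are by gene and do not tell the transcripts of *Cdkn2a* apart. *Cdkn2a* was detected in 49.1% and 44.1% of cells, and was highest from 1.75π to 2π and lowest from 0.5π to 0.75π in both cultures. The checkpoint kinases *Chek1* and *Chek2*, the damage kinase *Atm* and *Npm1* varied with the position as well, with their highest arcs between 0.5π and 1.25π. Together with *Cdkn2a* and *Ppm1d* these were 6 of 21, against 8.34% of all genes. *Ppm1d* stands in this list and in that of the other targets, and was counted in both. *Mdm4*, the partner of MDM2, had r of -0.0020 and 0.0301.

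The listed genes known to fall when p21 is active did not have strongly negative correlations with *Cdkn1a*. Of 13 genes that the DREAM complex represses, 11 were analysed, and all 11 had R² of at least 0.02, against 8.34% of all genes, with a median lower R² of 0.322. The position was itself built from cell-cycle genes, *Top2a* among them, so these R² values are not independent of it. One of them, *Mcm5*, which encodes a subunit of the replicative helicase, had r of at most -0.1 in both cultures (-0.119 and -0.164), and given total UMIs and position 0 did (*Mcm5* then had a lower partial r of -0.0558). *E2f1* had -0.00996 and -0.132. The 5 genes with the largest R² were *Birc5* (-0.0560 and -0.0272), *Cdc20*, *Top2a*, *Ccnb1* and *Cdk1*, and the last 4 lay between -0.0394 and 0.00977. *Ccnb2* had -0.0679 and -0.0510, with a partial r of -0.0642 and -0.106, and *Cdc25c* had -0.0785 and 0.0011.

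Cell type markers moved with *Cdkn1a* in part. The summed values of the 4 oligodendrocyte progenitor markers analysed, of 5 listed, were 6.89 in the cells with the lowest *Cdkn1a* and 5.60 in those with the highest in culture 1, and 6.63 and 5.30 in culture 2. *Olig2* accounted for most of that sum, and *Pdgfra* and *Sox10* were detected in 8.77% of cells or fewer. *Cspg4* went the other way in culture 2, with r with *Cdkn1a* of -0.0400 in culture 1 and 0.119 in culture 2. The 3 neuronal markers of 5 had sums of 2.37 and 1.60 in culture 1 and of 2.10 and 1.51 in culture 2, most of which was *Map2*, with *Dcx* in 7.34% and 1.56% of cells. The summed values of the 7 radial glia markers of 9, of which *Fabp7* made up most with a mean value of 91.9 and 90.7, differed in direction between the cultures, with sums of 129 and 139.9 in culture 1 and of 144.7 and 128 in culture 2. *Vim* correlated with *Cdkn1a* at 0.288 and 0.104, the 1 of 7 with r of at least 0.1 in both cultures. *Nes* correlated with *Cdkn1a* at 0.235 in culture 1 and 0.0022 in culture 2, and *Fabp7* at 0.0405 and -0.183. The summed values of the 2 astroglial markers of 4 went from 1.20 to 0.97 and from 0.93 to 0.90. These 2 differed in direction, with r with *Cdkn1a* of -0.136 and -0.0032 for *S100b* and 0.0983 and 0.0082 for *Aldh1l1*. The 3 integrated stress response genes of 6 had sums of 2.0 and 2.23 in culture 1 and of 1.53 and 1.80 in culture 2. *Asns* made up most of that sum, with a mean value of 1.36 and 1.0, and had r with *Cdkn1a* of 0.00099 and 0.020. Of the 3 genes, 0 had r of at least 0.1 in both cultures. For none of these lists was the part in the *Cdkn1a* pattern tested.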

How the data were processed

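Droplet single-cell RNA-seq was made from 2 neurosphere cultures (10x Chromium 3′ chemistry, version 2 by the labels and version 3 by the methods). By the methods, the authors quantified spliced counts with Alevin (Salmon 1.3.0) on GRCm38, removed outlying cells and cells with a high doublet score, removed mitochondrial genes, and normalised each cell by library size. The expression table deposited by the authors holds a linear signal that is never negative. The authors' per-cell table holds total UMIs, which are sums of estimated counts, and the other columns deposited are the position in radians and stage labels. Integration used Seurat 3.2.2 per the labels.

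Values were used as log2(value + 1). Symbols were found for 10662 of 10666 genes, all expression columns were mapped to a culture, and no cell was removed here. R² on 2 harmonics, periodic loess (span 0.3) and correlations were computed for each culture with scipy 1.17.1, pandas 2.3.3 and numpy 2.4.6 (Python 3.11.15), and were tested on simulated data. A factor per cell and an offset per gene and culture gave whole counts for the members and, with at least 75% of values under 8.5 within 0.1 of a whole number in both cultures, for 7201 genes. Thinned shares are expected values. The recovery of counts and the comparisons between cultures, arcs and *Cdkn1a* groups that use it were added after seeing the data. The members and lists were chosen with earlier results of these data known. Named genes are the members, the up to 5 of each list with the largest lower R² or r with *Cdkn1a*, the 10 nearest and 5 farthest genes of *Cdkn1a*, the 3 nearest of each other member and the 10 nearest of the mean of the targets, and other genes were named after their values were seen. There is 1 condition, so no test was run. Where nothing says that the cultures came from separate litters, the spread between them may be technical.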

Additional observations from a re-analysis of the deposited data

How the results depend on the processing

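With an R² minimum of 0.05 in place of 0.02, 3 of 7 members and 3 of 30 other targets varied with the position, and with an r minimum of 0.15 in place of 0.1, 8 of 21 pairs of members were counted. The counts of members and of pairs were within 1.5 times of 5 and 13 under each other setting run for them. For members these were an R² minimum of 0.01, 1 or 3 harmonics, total UMIs in the fit and a position from Seurat genes. For pairs they were an r minimum of 0.05, rank and partial correlation, and cells from 1.5π over 0 to 0.25π alone. A pseudocount of 0.1, cells with 10000 to 20000 UMIs, rescaled cells, genes in at least 5% of cells and the recovered counts, added after seeing the data, were run for both. The count of other targets ran from 6 to 10 with an R² minimum of 0.01, a pseudocount of 0.1, total UMIs in the fit and the Seurat position, and was not computed under the rest. Without replicate 1 or replicate 2, the counts were 5 members, 7 and 9 other targets, and 13 pairs. *Trp53inp1* fell below 0.02 with 1 harmonic (0.0186) and with the Seurat position (0.0185). No paired analysis was possible because there is 1 group. Depth limits *Trp53inp1*, *Mdm2* and *Zmat3* most, at a mean below 1 count per cell.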
